A study of Homo sapiens with 41 samples.

Results

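When quiescent cells receive serum, its growth factors switch on immediate early transcription factors within minutes, then feedback inhibitors that shut the signal down, and later the genes that enlarge the cell before it commits to DNA synthesis. T98G is an established human glioblastoma line that, unlike most tumour lines, still stops dividing when serum is withdrawn, so its return to the cell cycle can be followed in step. Between these phases lie the hours described here.

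The step from 240-280 to 290-340 min comprised 11 of the 41 libraries of the series, 6 taken at 290, 300, 310, 320, 330 and 340 min and 5 at 240, 250, 260, 270 and 280 min after serum. All dishes had been kept without serum for 72 h before fetal calf serum was given back at 20%, and each time point was a dish of its own with 1 library of rRNA-depleted total RNA. Neighbouring time points therefore stood in for replicates, the SEs hold the change inside a window as well as the noise between dishes, and the window cannot be told apart from anything else that changed with the order of harvest. Values are normalized counts (reads over the exons of a gene divided by the size factor of the library), which follow gene length and are compared only within a gene. A gene was called at an adjusted p under 0.01 in edgeR's quasi-likelihood test over all 21629 genes tested.

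The 11 libraries held between 29775023 counts (340 min) and 57954050 counts (250 min). The library at 300 min stood farthest from the others of its window, with a median absolute log2 departure of 0.146 over 13971 genes, against 0.0717 to 0.115 for the other 5 libraries, and at 240-280 min the library at 240 min did, with 0.122 against 0.061 to 0.103. These 2 libraries also had the lowest shares of counts in protein-coding genes of their windows, 54.4% at 300 min and 54.7% at 240 min. Without both of them the step gave 200 genes higher and 307 lower, where all 11 gave 353 and 436. Of 14 glial and glioblastoma markers 9 passed the filter on low counts, with VIM, CD44, TNC and EGFR abundant and FABP7 and AQP4 at 0 in all 11 libraries, and the summed level of the list was 127790 to 146960 at 290-340 min and 120980 to 131260 at 240-280 min. The astrocyte marker GFAP did not exceed 3.74 normalized counts. None of the tested markers of neurons, immune, endothelial or epithelial cells was called in edgeR, of 13 tested, while 2 of them had an unadjusted p under 0.05, where 23% of all genes tested did, and DESeq2 called 0. Their sums were 472 to 593 at 290-340 min against 593 to 652 at 240-280 min for neurons, 1544 to 1930.4 against 1640.2 to 1902 for immune cells, 36.3 to 52.8 against 34.0 to 46.9 for endothelial cells and 6.91 to 17.4 against 7.56 to 16.1 for epithelial cells and hepatocytes, with 2, 1, 1 and 1 members at 0 in all 11 libraries. SNAP25 made up most of the neuron sum and CD68 most of the immune sum in all 11 libraries, so both sums rest largely on a single gene each. CD68 overlaps ENSG00000264772 on the same strand, and reads over the shared part were counted for both. The part of these marker levels in the results was not tested.

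At 290-340 min 353 genes were higher (1.63% of those tested) and 436 were lower (2.02%) than at 240-280 min, 320 and 395 of them protein-coding. At an unadjusted p under 0.05, 2566 genes were higher (11.9%) and 2412 lower (11.2%), or 23% in all. The median size was a log2 change of 0.31 among the higher genes and -0.41 among the lower ones, over all genes tested -0.0014, and a log2 change past 1 in either direction was reached by 4 genes higher and 25 lower. The 6 values of 290-340 min lay wholly above the 5 of 240-280 min for 745 genes (3.44%) and wholly below them for 704 (3.25%), and 297 of the 353 higher and 393 of the 436 lower genes were among these. Scaling to the spike-in RNAs instead of to all genes moved the median log2 change of all genes to -0.16 and left 11 genes higher and 355 lower. In RNA of whole dishes, a change in the number of cells expressing a gene and a change in RNA per cell cannot be told apart. The number of calls also rested on single libraries, for it was lowest without the 250 min library, with 105 higher and 167 lower, and each of the 789 called genes kept its direction in each of the 11 fits that left out 1 library.

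**Figure D1:**
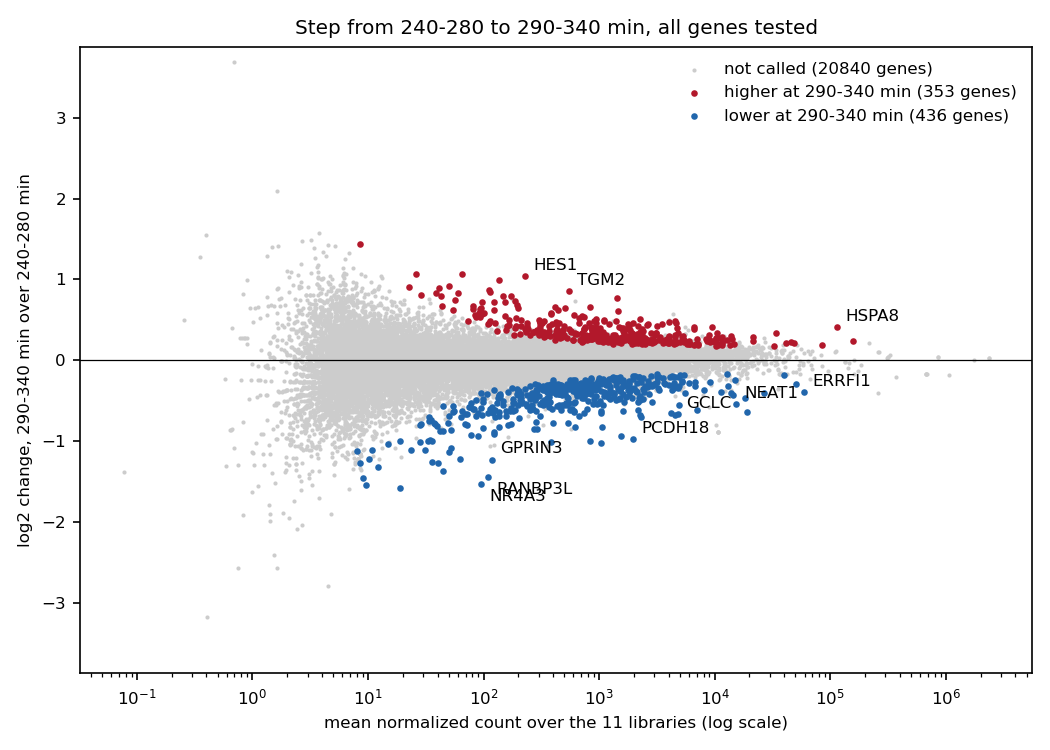
Mean normalized count over the 11 libraries (x axis, log scale) against the log2 change of 290-340 min over 240-280 min (y axis) for each gene tested, with 353 genes called higher in red, 436 called lower in blue and the others in grey. Among named genes, NR4A3 at -1.53 and RANBP3L at -1.45 lie lowest and HES1 at 1.04 highest.

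No gene could be shown to change at the boundary beyond the drift inside the windows, since edgeR called 0 of 21629 genes for the step minus 55 min of the common slope (866 at an unadjusted p under 0.05, smallest adjusted p 0.903, DESeq2 also 0). No gene could be shown to change its pace either, with 0 calls for the step minus the preceding step from 190-230 to 240-280 min carried on (751 at an unadjusted p under 0.05, smallest adjusted p 0.762, DESeq2 also 0). The slope inside the windows had the same sign as the step in 340 of the 353 higher and 421 of the 436 lower genes. Libraries that the step did not use gave the same directions, as 352 of the 353 higher genes were also higher at 350-400 min than at 190-230 min, 350 of them called, and all 436 lower genes were lower, 424 of them called. That wider comparison called 3380 genes higher (15.6%) and 3201 lower (14.8%) in all. Of the 10 windows of the course, the highest mean fell at 350-400 min for 289 of the 353 higher genes and at 290-340 min for 42, and the lowest mean at 350-400 min for 279 of the 436 lower genes and at 290-340 min for 34.

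**Figure D2:**
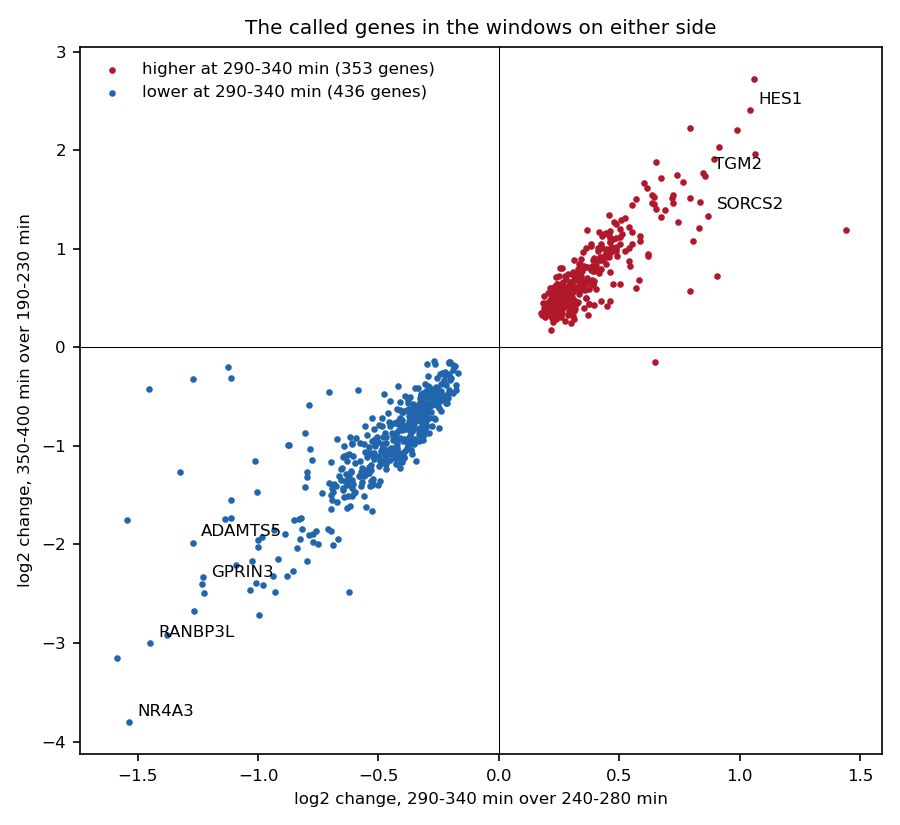
Log2 change of 290-340 min over 240-280 min (x axis) against that of 350-400 min over 190-230 min (y axis), which uses other libraries, for the 353 genes called higher in the step (red) and the 436 called lower (blue). Of the red points 352 lie above 0 on the y axis, and all 436 blue points lie below 0.

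The 10 strongest rises among called protein-coding genes with a mean of at least 100 normalized counts and no overlap had log2 changes between 0.69 and 1.04. HES1, a transcriptional repressor of the Notch pathway (chr3:194136148-194138732, plus strand), had lowest, median and highest normalized counts of 218, 312 and 353 at 290-340 min, against 113, 108, 166, 160.3 and 183 at 240-280 min. The windows did not overlap and HES1 was higher (log2 change 1.04, SE 0.16, edgeR adjusted p 0.00155), although its peak of 4586 had come at 60 min. TGM2, the transglutaminase that cross-links proteins (chr20:38127385-38166578, minus strand), had 524, 710.3 and 796 at 290-340 min, against 324, 302, 403, 428 and 434 at 240-280 min, and all 6 later libraries exceeded all 5 earlier ones (log2 change 0.86, SE 0.12, edgeR adjusted p 0.000741). IL1B, the cytokine interleukin-1 beta, had 155, 184 and 212 at 290-340 min, against 82.6, 89.3, 115, 131 and 147 at 240-280 min. IL1B had a log2 change of 0.73, SE 0.13, edgeR adjusted p 0.0018. NLRP3, the inflammasome sensor that leads to the processing of interleukin-1 beta, had 208, 244 and 259 at 290-340 min, against 130.5, 118, 147, 167 and 173 at 240-280 min. NLRP3 had a log2 change of 0.69, SE 0.10, edgeR adjusted p 0.000549. IL1B and NLRP3 thus rose without overlap, and both had started near 15 normalized counts, at 16.6 and 14.5 at 0 min. TGFA, a ligand of the EGF receptor, had 122, 152 and 178 at 290-340 min, against 64.2, 77.6, 86.2, 109 and 119 at 240-280 min. TGFA had a log2 change of 0.72, SE 0.14, edgeR adjusted p 0.00313.

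The other protein-coding genes of the 10 with the largest rise were INSYN2B at a log2 change of 0.99 ± 0.13 (SE), the sorting receptor gene SORCS2 at 0.87 ± 0.14, DNER, which encodes a transmembrane protein with Notch ligand-like repeats, at 0.80 ± 0.14, the hair keratin gene KRT81 at 0.77 ± 0.12 and the formin gene FHOD3 at 0.74 ± 0.10. INSYN2B had mean normalized counts of 176 at 290-340 min and 88.5 at 240-280 min, KRT81 of 1761 at 290-340 min and 1036 at 240-280 min. KRT81 has near-identical keratin paralogs, and since reads that map to several genes were counted for each, its counts may hold reads of those. Of the 10 genes 7 kept their call whichever library was left out, DNER lost it without the 320 or the 250 min library, KRT81 without the 240 min library and TGFA without the 250 or the 260 min library, with edgeR adjusted p of at most 0.016. Under spike-in size factors IL1B, NLRP3 and TGFA lost their call (edgeR adjusted p 0.0134, 0.0116 and 0.0192), while the others of the 10 kept it.

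**Figure D3:**
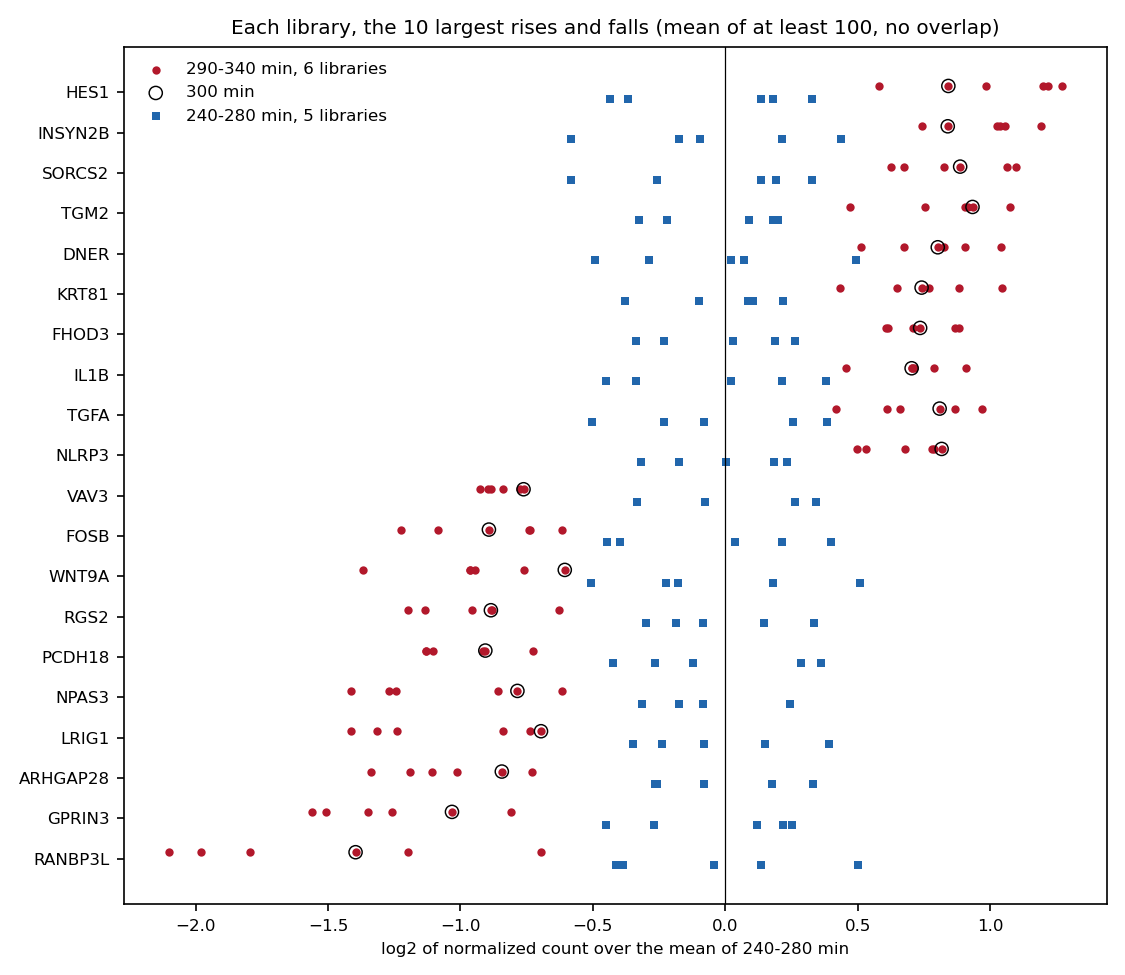
Normalized count of each library as log2 of its ratio to the mean of 240-280 min (x axis) for the strongest changes among called protein-coding genes with a mean of at least 100 and no overlap, 10 up and 10 down (rows), with the 6 libraries at 290-340 min as red points, the 300 min library ringed, and the 5 at 240-280 min as blue squares. In each row the red and blue symbols do not overlap, as the choice of genes required.

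The 10 strongest falls chosen by the same limits had log2 changes between -1.45 and -0.85. RANBP3L (chr5:36246913-36302114, minus strand) had 38.7, 55.5 and 103 at 290-340 min, against 161, 235, 183, 125 and 127 at 240-280 min, and the windows did not overlap (log2 change -1.45, SE 0.25, edgeR adjusted p 0.00563). Its call was lost without any 1 of 8 libraries, at an edgeR adjusted p of up to 0.0161. GPRIN3 (chr4:89236383-89307800, minus strand) had 58.1, 69.4 and 97.8 at 290-340 min, against 204, 199, 186, 142 and 125 at 240-280 min (log2 change -1.23, SE 0.15, edgeR adjusted p 0.000326), after a highest value of 344 at 220 min. PCDH18, a protocadherin gene, had 1234, 1345 and 1634 at 290-340 min, against 3471, 3298, 2484, 2246 and 2017 at 240-280 min. PCDH18 had a log2 change of -0.98, SE 0.15, edgeR adjusted p 0.00334. It had counted 22966 at 0 min, and the fall in this step came late in a longer decline. NPAS3, a bHLH-PAS transcription factor gene, had 429, 556 and 744 at 290-340 min, against 1351, 1353, 1075, 1009.6 and 917 at 240-280 min. NPAS3 had a log2 change of -1.002, SE 0.16, edgeR adjusted p 0.00443.

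LRIG1, an inhibitor of the EGF receptor, had 199, 260.2 and 327 at 290-340 min, against 695, 588, 501, 448 and 416 at 240-280 min (log2 change -1.01, SE 0.17, edgeR adjusted p 0.00433), without overlap. RGS2, which speeds the shut-off of G proteins, had 913, 1106 and 1354 at 290-340 min, against 2314, 2635, 1972, 1838 and 1702 at 240-280 min. RGS2 had a log2 change of -0.93, SE 0.13, edgeR adjusted p 0.00132. VAV3, a guanine nucleotide exchange factor, had 203, 212 and 227 at 290-340 min, against 488, 462, 365, 305 and 306 at 240-280 min, and its 6 later values spanned only 203 to 227 (log2 change -0.85, SE 0.12, edgeR adjusted p 0.000549). ARHGAP28, which encodes a GTPase-activating protein, changed by -1.03 ± 0.14 (log2, SE), the Wnt ligand gene WNT9A by -0.92 ± 0.16 and FOSB, a partner of JUN in AP-1, by -0.86 ± 0.16. Of the 10 genes 4 kept their call whichever library was left out, while LRIG1, PCDH18 and WNT9A lost it without the 250, 320 or 330 min library, NPAS3 also without the 240 min one and FOSB without any 1 of 6 libraries, with edgeR adjusted p of at most 0.0258.

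**Figure D4:**
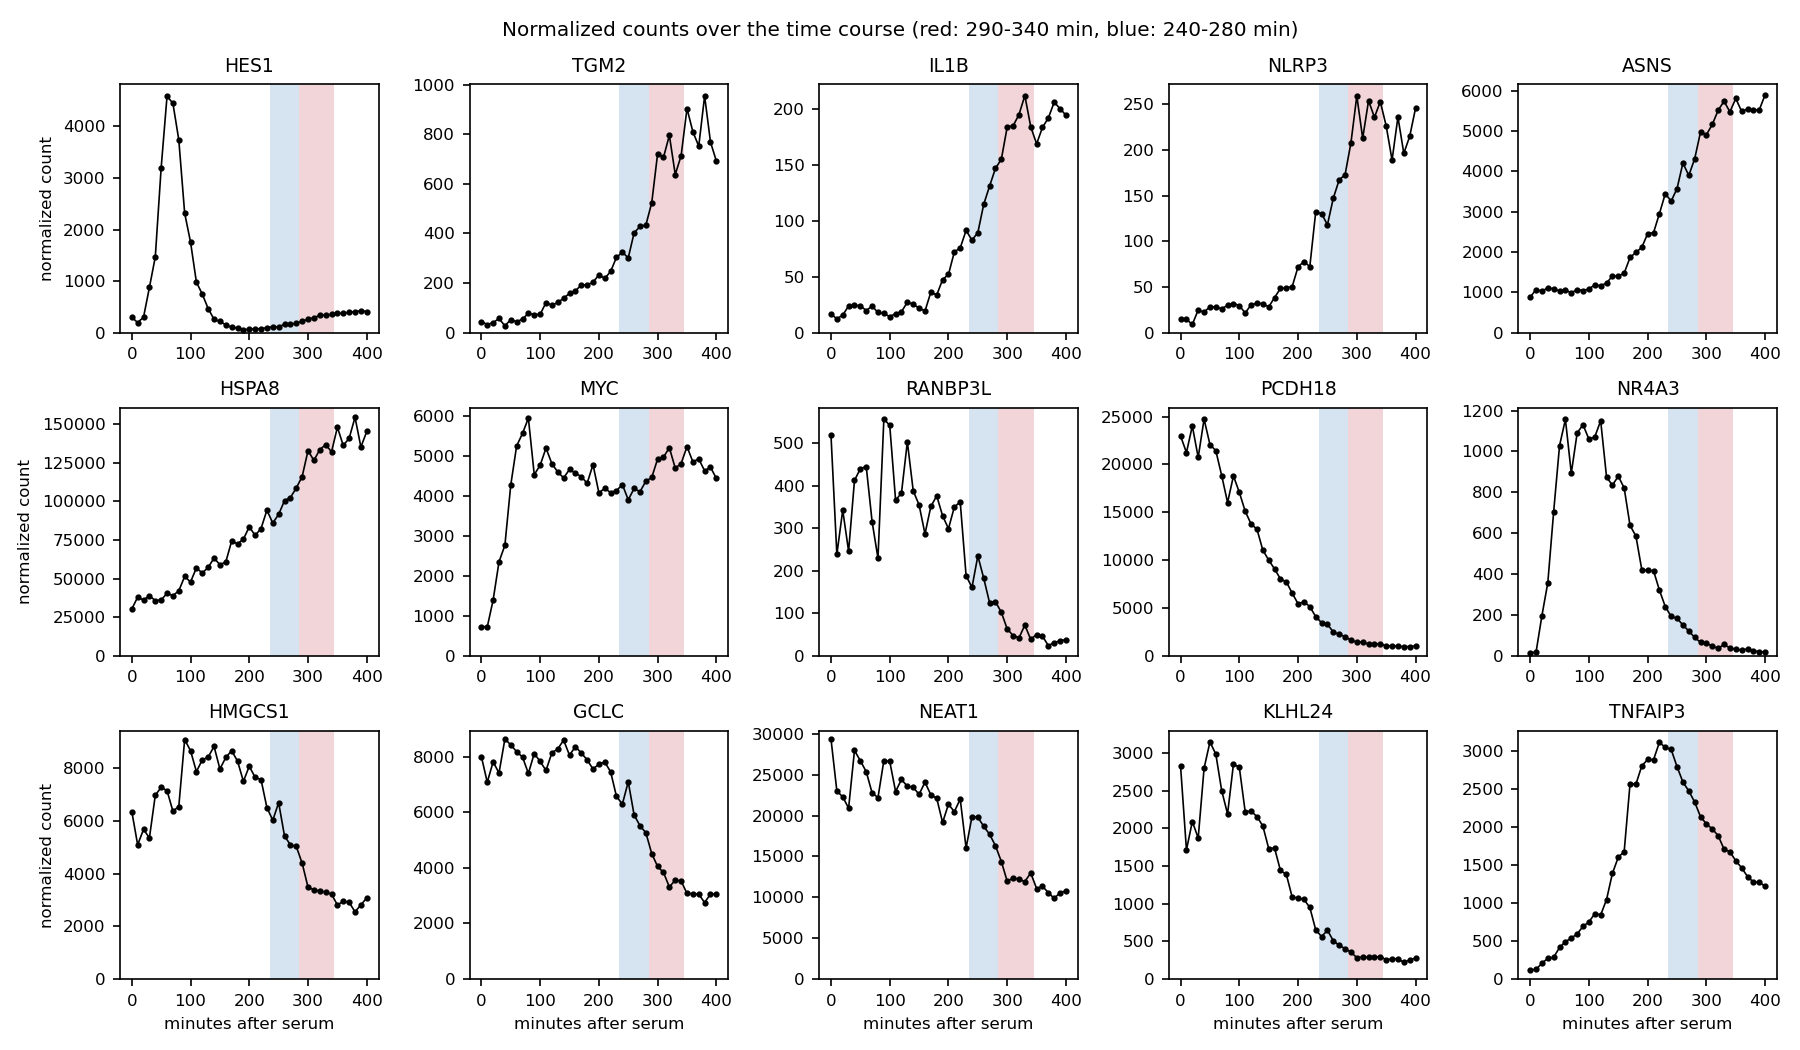
Normalized counts (y axis) at each of the 41 time points (x axis, minutes after serum) for 15 genes, with 290-340 min shaded red and 240-280 min shaded blue. HES1 and NR4A3 peaked at 60 min and differ in the shaded part, where HES1 was higher and NR4A3 lower at 290-340 min.

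Most called immediate early transcription factors were lower. Of 26 tested, 9 were lower and 1 was higher, with a median log2 change of -0.30 against -0.0014 over all genes tested. Calls in this and the following lists stand beside shares of 1.63% higher and 2.02% lower over all genes tested. NR4A3, an orphan nuclear receptor gene, had 36.3, 51.8 and 66.5 at 290-340 min, against 193, 183, 151, 122 and 89.9 at 240-280 min. NR4A3 had a log2 change of -1.53, SE 0.21, edgeR adjusted p 0.00102. EGR3, a zinc finger factor gene, had 8.3, 27.2 and 29.8 at 290-340 min, against 68.3, 61.8, 45.4, 36.5 and 37.3 at 240-280 min. EGR3 had a log2 change of -0.997, SE 0.22, edgeR adjusted p 0.00854. ATF3, a stress-induced bZIP factor gene, had 419, 507 and 628 at 290-340 min, against 981, 895, 829, 749 and 733 at 240-280 min. ATF3 had a log2 change of -0.69, SE 0.11, edgeR adjusted p 0.00195. All 3 showed no overlap between the windows, and at the other end of the list MYC, chosen here after its value was seen, had 4463, 4869 and 5209 at 290-340 min, against 4286, 3906, 4188, 4107 and 4371 at 240-280 min. MYC had a log2 change of 0.22, SE 0.047, edgeR adjusted p 0.0064. MYC, the growth-promoting bHLH factor, thus rose slightly under scaling to all genes while the rest of the called list fell. Under spike-in size factors 0 of the 26 were called higher, so MYC lost its call, and 11 were lower, with a median of -0.47. The number of the 9 calls that held was 2 without the 250 min library (edgeR adjusted p up to 0.0434), MYC lost its call without any 1 of 7 libraries (up to 0.0273), EGR3 without any 1 of 8 (up to 0.0388), ATF3 without the 250 min one (0.0103), and without the libraries at 240 and 300 min 6 genes were lower and 1 was higher.

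Feedback inhibitors and signalling targets split. Among 16 ERK feedback inhibitors ERRFI1, which binds and blocks the EGF receptor, had 44402, 51583 and 58906 at 290-340 min, against 70603, 73045, 68546, 62983 and 64574 at 240-280 min (log2 change -0.39, SE 0.064, edgeR adjusted p 0.00122), DUSP16, a MAP kinase phosphatase gene, was lower at -0.28 ± 0.06 (log2, SE), and SPRED2, an inhibitor of ERK activation, was higher at 0.29 ± 0.061. Of 14 NF-kappaB pathway genes 2 rose and 2 fell. NFKBIE, which encodes an IkappaB inhibitor, had 733, 846 and 867 at 290-340 min, against 505, 497, 559, 628 and 634 at 240-280 min. NFKBIE had a log2 change of 0.55, SE 0.071, edgeR adjusted p 0.000323. TNFAIP3, the A20 deubiquitinase of the same feedback, had 1670.3, 1926 and 2130.3 at 290-340 min, against 3014, 2788, 2585, 2469.7 and 2324 at 240-280 min. TNFAIP3 had a log2 change of -0.47, SE 0.072, edgeR adjusted p 0.000774. The windows overlapped in neither gene, so members of this feedback moved in opposite directions under scaling to all genes. Under spike-in size factors 0 of the 14 NF-kappaB genes were higher and 2 were lower, and their median turned from 0.077 to -0.081. Of the 16 ERK feedback inhibitors 0 were then higher and 1 was lower. TRAF1 at 0.38 and NFKBIZ at -0.44 were the other called members. NFKBIZ shares its strand and part of its position with NXPE3, which was also lower, at -0.26, and reads over the shared part were counted for both. The call of TRAF1 was lost without any 1 of 6 libraries (edgeR adjusted p up to 0.0177), that of SPRED2 without any 1 of 8 (up to 0.0198) and that of DUSP16 without any 1 of 8 (up to 0.0178).

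Among TGF-beta response genes 3 of 20 were lower and 1 was higher, with a median of -0.13. CCN2, a matricellular protein that is also a target of YAP, had 11258, 12778 and 13371 at 290-340 min, against 19762, 17835, 16343, 14846 and 14952 at 240-280 min. CCN2 had a log2 change of -0.43, SE 0.071, edgeR adjusted p 0.0018. BAMBI, a decoy receptor gene, at -0.40 and the inhibitory Smad gene SMAD6 at -0.39 were the other lower ones. Among 16 genes listed for YAP and TEAD 3 were lower, CCN2, the kinase gene LATS2 at -0.33 and WWTR1 at -0.28. WWTR1 encodes TAZ, a homologue of YAP rather than a target. Without the 320 min library 1 of the 3 lower TGF-beta genes kept its call (edgeR adjusted p up to 0.0236), and LATS2 lost its call without any 1 of 6 libraries (up to 0.0246).

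Of 21 secreted cytokines and growth factors TGFA was higher and the chemokine gene CXCL3 lower, at -0.36 ± 0.068 (log2, SE), a call lost without the 250 or the 320 min library (edgeR adjusted p up to 0.0149). Of 24 genes listed as growth factor receptors 4 were lower and none higher, with a median of -0.20. Among these 4, PDGFRA alone encodes a receptor for a protein growth factor. LPAR1, a receptor for lysophosphatidic acid, had 709.5, 799 and 907 at 290-340 min, against 1313, 1249.9, 1059, 1212 and 978 at 240-280 min. LPAR1 had a log2 change of -0.54, SE 0.08, edgeR adjusted p 0.000634. The protease-activated receptor gene F2RL1 changed by -0.37 ± 0.065, PDGFRA by -0.36 ± 0.074 and the sphingosine phosphate receptor gene S1PR3 by -0.20 ± 0.046. Calls of S1PR3 and PDGFRA were lost without any 1 of 9 and any 1 of 5 libraries (edgeR adjusted p up to 0.0297).

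Genes of protein synthesis were among the rises. Of 40 ribosome biogenesis factors 7 were higher and none lower, with a median of 0.16, and of 23 aminoacyl-tRNA synthetases, which load amino acids onto tRNAs, 8 were higher and none lower, with a median of 0.18. With spike-in size factors the median of the ribosome biogenesis factors turned to -0.0013 and that of the synthetases was 0.024, with 0 genes of either list called. RRP9, a protein of the U3 snoRNP that processes pre-rRNA, had 1657, 1845 and 1932 at 290-340 min, against 1336, 1243, 1354, 1473 and 1477 at 240-280 min. RRP9 had a log2 change of 0.40, SE 0.058, edgeR adjusted p 0.000557. NOP56, a core protein of box C/D snoRNPs, had 13658, 15073 and 15686 at 290-340 min, against 11481, 11145, 12077, 12821 and 13528 at 240-280 min. NOP56 had a log2 change of 0.30, SE 0.052, edgeR adjusted p 0.00171. POLR1B, a large subunit of RNA polymerase I, was higher by 0.31 ± 0.051 (log2, SE). Neither RRP9 nor NOP56 overlapped between the windows. Several snoRNA genes lie within NOP56 on the same strand, and reads over them were counted for both. RRP12, a pre-rRNA processing factor, was higher by 0.26 ± 0.06 and lost its call without any 1 of 10 libraries (edgeR adjusted p up to 0.0394).

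FARSA, a subunit of phenylalanyl-tRNA synthetase, had 1031, 1154 and 1291 at 290-340 min, against 856, 769.6, 849, 903 and 983 at 240-280 min. FARSA had a log2 change of 0.40, SE 0.067, edgeR adjusted p 0.00118. GARS1, which loads glycine, had 9269, 9674 and 10313 at 290-340 min, against 7089, 7512, 8139.5, 7994 and 8620.5 at 240-280 min (log2 change 0.31, SE 0.05, edgeR adjusted p 0.001), and neither gene's windows overlapped. WARS1 for tryptophan was higher by 0.34 ± 0.056 (log2, SE) and YARS1 for tyrosine by 0.32 ± 0.056. Of the 7 higher ribosome biogenesis factors 3 kept their call without the 250 min library (edgeR adjusted p up to 0.0394) and of the 8 higher synthetases 5 did (up to 0.0242), and without the libraries at 240 and 300 min the lists held 4 and 7 higher genes.

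The promoters of 3 of these higher genes are shown because they hold a motif of a factor linked to their pathway, as sequences of 300 bases, 250 before and 50 after the start, from RefSeq (GRCh38.p14), with the motif in capitals. IARS1 (log2 change 0.23, SE 0.044, edgeR adjusted p 0.00292, a call lost without the 250 min library at 0.0114) and MARS1 (log2 change 0.29, SE 0.051, edgeR adjusted p 0.00173), the synthetases for isoleucine and methionine, hold the C/EBP-ATF response element TGATGCAA, here as its reverse complement TTGCATCA, and RRP9 holds the E-box CACGTG. The IARS1 promoter holds CACGTG too, left in lower case here.
IARS1 (chr9:92293648-92293947, minus strand): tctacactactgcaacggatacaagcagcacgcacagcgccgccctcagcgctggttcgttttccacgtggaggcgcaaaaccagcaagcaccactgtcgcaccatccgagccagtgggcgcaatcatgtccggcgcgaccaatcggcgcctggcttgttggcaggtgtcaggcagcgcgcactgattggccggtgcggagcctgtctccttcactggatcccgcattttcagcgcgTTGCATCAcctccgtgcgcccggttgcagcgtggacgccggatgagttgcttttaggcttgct
MARS1 (chr12:57487818-57488117, plus strand): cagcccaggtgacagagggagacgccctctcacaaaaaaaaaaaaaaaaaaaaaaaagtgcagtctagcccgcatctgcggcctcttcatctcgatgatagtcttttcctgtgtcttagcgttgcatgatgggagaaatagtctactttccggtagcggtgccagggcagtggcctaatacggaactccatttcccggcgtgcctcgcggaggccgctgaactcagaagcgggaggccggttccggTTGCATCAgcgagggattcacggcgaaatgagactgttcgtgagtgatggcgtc
RRP9 (chr3:51941855-51942154, minus strand): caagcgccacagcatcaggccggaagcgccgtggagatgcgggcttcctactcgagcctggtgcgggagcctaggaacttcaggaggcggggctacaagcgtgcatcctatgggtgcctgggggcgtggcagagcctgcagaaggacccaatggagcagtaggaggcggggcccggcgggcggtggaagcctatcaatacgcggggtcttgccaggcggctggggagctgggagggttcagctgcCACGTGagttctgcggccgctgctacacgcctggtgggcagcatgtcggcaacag

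By symbol 12291 of the 21629 genes tested had a promoter. TGATGCAA, a motif chosen after the changes of the synthetases were seen and searched on both strands, lay in 6 of 18 synthetase promoters and in 0.488% of all promoters, in 1.59% of those of the higher and 0.304% of those of the lower genes. It was in 2 of the 7 higher synthetases with a promoter, and AARS1, CARS1, NARS1 and TARS1 held it without a call. CACGTG lay in 13 of 34 promoters of ribosome biogenesis factors and in 9.82% of all promoters, with 11.1% of the higher and 10.6% of the lower genes. The E2F motif, searched as TTTCCCGC or TTTGGCGC on both strands, lay in 16 of 32 promoters of DNA replication genes, against 3.56% of all, and in 2.38% of the higher and 2.13% of the lower genes. SRE (TCACCCCAC) was found in 0.35% of all promoters, 0.794% of those of the higher genes and none of the 329 of the lower ones, CRE (TGACGTCA) in 3.24%, 2.78% and 3.04%, and CCAAT, which other motifs can contain, in 36.6%, 40.1% and 35.6%. Of 18 promoters of cholesterol genes 1 held SRE, and of 22 of the unfolded protein response 18 held CCAAT. A match describes these letters in the window and is not a site of binding.

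The amino acid response genes under ATF4, which is translated when amino acids are short or the ER is stressed, gave 7 higher and 2 lower of 25, with a median of 0.11 that turned to -0.042 with spike-in size factors. ASNS, asparagine synthetase, had 4913, 5324 and 5745 at 290-340 min, against 3264, 3576, 4209, 3902 and 4314 at 240-280 min. ASNS had a log2 change of 0.46, SE 0.066, edgeR adjusted p 0.000525. TRIB3, a pseudokinase induced by ATF4, had 1463, 1599.5 and 1826 at 290-340 min, against 1033, 1044, 1163, 1241 and 1289 at 240-280 min. TRIB3 had a log2 change of 0.49, SE 0.072, edgeR adjusted p 0.000549. PSAT1, an enzyme of serine synthesis, was higher by 0.44 ± 0.076 (log2, SE). Of the 2 lower members 1 was ATF3, and the other was SLC38A2, a transporter of neutral amino acids chosen here after its value was seen, with 21343, 22728 and 26725 at 290-340 min, against 30612, 35153, 31491, 29299 and 27504 at 240-280 min. SLC38A2 had a log2 change of -0.41, SE 0.065, edgeR adjusted p 0.0011. The number of the 7 higher calls that held was 5 without the 250 min library (edgeR adjusted p up to 0.018). Of the 24 genes tested for the unfolded protein response in the ER edgeR called none and DESeq2 1. At an unadjusted p under 0.05, 5 of them were higher and 0 lower, where 11.9% of all genes were higher and 11.2% lower. The median of this list was 0.037 and turned to -0.12 with spike-in size factors.

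The rises among folding and translation genes were small. Of 24 genes for the CCT chaperonin, which folds actin and tubulin, and for tubulin and its folding, 9 were higher and none lower, with a median of 0.17. Under spike-in size factors the median was 0.018 with 0 calls. CCT5 had 14865, 15455 and 15748 at 290-340 min, against 11881, 12282, 12589, 13209 and 14106 at 240-280 min. CCT5 had a log2 change of 0.26, SE 0.045, edgeR adjusted p 0.00129. CCT3 was higher by 0.28 ± 0.05, PFDN2 by 0.28 ± 0.051 and TUBA1C by 0.28 ± 0.055 (log2, SE). HSPA8, the constitutive HSP70 chaperone, had 116000, 132420 and 136630 at 290-340 min, against 85946, 91531, 100440, 102410 and 108640 at 240-280 min (log2 change 0.41, SE 0.058, edgeR adjusted p 0.000495), and with HSP90AB1 at 0.21 it was called among 20 heat shock genes. The median of the heat shock list was 0.13 and turned to -0.026 with spike-in size factors. The windows did not overlap for HSPA8 or CCT5. Of 28 translation initiation genes 3 were higher, EIF4EBP1, the eIF4E-binding inhibitor, by 0.37 ± 0.072, EIF6 by 0.25 ± 0.053 and EIF3D by 0.21 ± 0.046, with a list median of 0.13 that turned to -0.024 with spike-in size factors. EIF6 overlaps ENSG00000261582 on the same strand, which was also higher, at 0.27, and reads over the shared part were counted for both. Of 23 purine and pyrimidine enzymes 4 were higher, with a median of 0.12 that turned to -0.039 with spike-in size factors. ODC1, which makes polyamines rather than nucleotides, had 4806, 5403 and 5693 at 290-340 min, against 3656, 3939, 4034, 4084 and 4459.5 at 240-280 min. ODC1 had a log2 change of 0.40, SE 0.054, edgeR adjusted p 0.000366. GART for purines was at 0.28, DHODH for pyrimidines at 0.36 and the nucleoside diphosphate kinase gene NME1 at 0.29, whose counts share reads with NME1-NME2. DHODH lost its call without any 1 of 9 libraries (edgeR adjusted p up to 0.0319). TUBA1C, HSPA8 and HSP90AB1 have near-identical copies whose reads may be counted with them.

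Of the 9 higher CCT and tubulin genes 2 kept their call without the 250 min library (edgeR adjusted p up to 0.0348), HSP90AB1 lost it without any 1 of 8 libraries (up to 0.0253), and the 3 initiation genes each lost it without the 240, 250, 260, 310 or 320 min library (up to 0.0318). Cytosolic ribosomal protein genes gave 0 calls of 28 in edgeR and in DESeq2, with 17 higher and 0 lower at an unadjusted p under 0.05, where 11.9% of all genes were higher and 11.2% lower. The median of this list was 0.10 and turned to -0.055 with spike-in size factors. RPL4, the most abundant, had 32929, 35640 and 37912 at 290-340 min, against 32987, 31971, 30111, 32873 and 33622 at 240-280 min (log2 change 0.13, SE 0.045, edgeR adjusted p 0.0855), overlapping. Mitochondrial ribosomal protein genes gave 0 of 23 (9 higher and 0 lower at an unadjusted p under 0.05, 2 by DESeq2), and nuclear-encoded respiratory chain subunits 0 of 33 (6 higher, 0 lower, and 0), beside the same shares over all genes. Their medians of 0.080 and 0.072 turned to -0.072 and -0.088 with spike-in size factors. Of 29 proteasome genes PSMD2 at 0.23 and PSME3 at 0.22 were higher, and of 38 nuclear transport genes the GTPase gene RAN at 0.25 and the exportin gene XPO5 at 0.21, and the medians of both lists were 0.061 and 0.07, turning to -0.099 and -0.087 with spike-in size factors. Of 28 splicing genes the SR protein genes SRSF5 at -0.23 and SRSF6 at -0.17 were lower. PSMD2 and XPO5 lost their calls without any 1 of 9 and 8 libraries, SRSF6 without any 1 of 10, and PSME3 and SRSF5 without any 1 of 5 (edgeR adjusted p up to 0.0388).

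**Figure D5:**
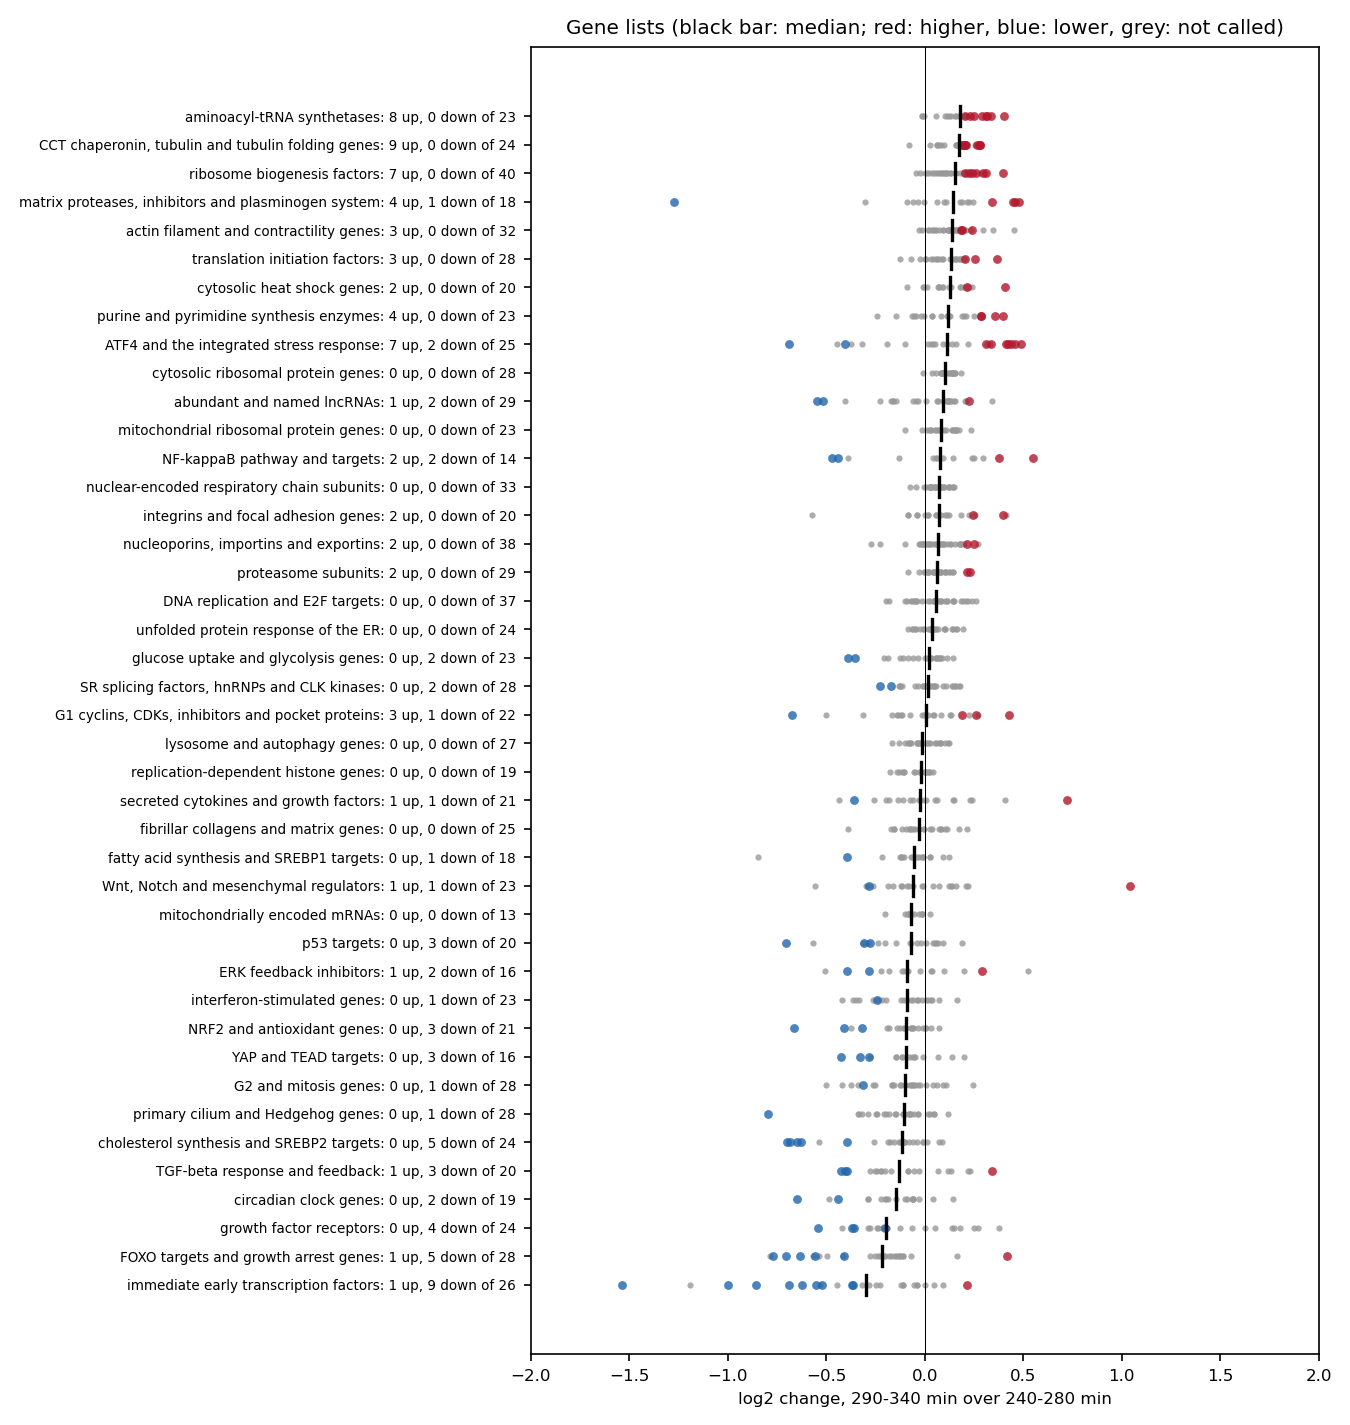
Log2 change of 290-340 min over 240-280 min (x axis) for the tested members of 42 gene lists (rows, ordered by median), with called higher genes in red, called lower ones in blue, the others in grey and the median as a black bar. Medians run from 0.18 for the aminoacyl-tRNA synthetases to -0.30 for immediate early factors, and under spike-in scaling, which moved the median of all genes to -0.16, the positive medians other than those of the synthetases and the CCT and tubulin genes turned negative.

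Genes of cholesterol synthesis were among the falls. Of 24 targets of SREBP2, the factor activated when sterols are low, 5 were lower and none higher, with a median of -0.12. HMGCS1, an early enzyme of the pathway, had 3229, 3368 and 4402 at 290-340 min, against 6032, 6699, 5433, 5099.8 and 5036 at 240-280 min. HMGCS1 had a log2 change of -0.68, SE 0.09, edgeR adjusted p 0.000738. The windows of HMGCS1 did not overlap, and 4402 belonged to 290 min, the first of the later libraries. The isomerase gene IDI1 changed by -0.63 ± 0.095 and INSIG1, which retains SREBP in the ER, by -0.39 ± 0.064 (log2, SE). INSIG1 was also the lone call among 18 SREBP1 targets, where 2.02% of all genes tested were lower. Without the 300 min library 4 of the 5 were called (edgeR adjusted p up to 0.0132), and without both the 240 and the 300 min library edgeR called none of the 24.

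Of 21 NRF2 targets and antioxidant genes 3 were lower and none higher, with a median of -0.095, and 2 of the 3 make glutathione. GCLC, the catalytic subunit of the enzyme that limits glutathione synthesis, had 3312, 3697 and 4511 at 290-340 min, against 6293, 7097, 5901, 5516 and 5262 at 240-280 min (log2 change -0.66, SE 0.086, edgeR adjusted p 0.000622), without overlap. GCLM, its modifier subunit, had 4254, 4616 and 6002 at 290-340 min, against 5833, 7204, 6843, 6069 and 6125 at 240-280 min (log2 change -0.41, SE 0.081, edgeR adjusted p 0.00606), where the 290 min value was the highest of the later window and overlapped the earlier one. NFE2L2, which encodes NRF2 itself, changed by -0.32 ± 0.07 (log2, SE). Without the 300 min library GCLC alone kept its call (edgeR adjusted p up to 0.0219). Of 23 glucose genes the transporter gene SLC2A3 was lower at -0.39 and PFKFB3, which makes the activator of phosphofructokinase, had 1493, 1754 and 1891 at 290-340 min, against 2388, 2226, 2097, 2055 and 2129.7 at 240-280 min (log2 change -0.35, SE 0.06, edgeR adjusted p 0.00131), while SLC2A3 lost its call without any 1 of 8 libraries (up to 0.0257).

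Of 28 FOXO targets and growth arrest genes 5 were lower and 1 higher, with a median of -0.22. KLHL24 had 285, 292 and 357 at 290-340 min, against 564, 648, 509, 448 and 404 at 240-280 min (log2 change -0.77, SE 0.10, edgeR adjusted p 0.000548) and PNRC1 had 174, 219.8 and 243 at 290-340 min, against 370.1, 332, 321, 312 and 258 at 240-280 min (log2 change -0.56, SE 0.09, edgeR adjusted p 0.001), both without overlap. TP53INP1, a stress gene shared with the p53 list, changed by -0.71 ± 0.13 and SESN3, a sestrin gene, by -0.63 ± 0.13 (log2, SE). TP53INP1 lost its call without the 250 or the 320 min library and SESN3 without any 1 of 8 (edgeR adjusted p up to 0.024). TXNIP, which restrains glucose uptake and was chosen here after its value was seen, went the other way, with 768, 844 and 1004 at 290-340 min, against 525, 561, 659, 738 and 741 at 240-280 min. TXNIP had a log2 change of 0.42, SE 0.091, edgeR adjusted p 0.00854. Of the 5 lower calls 3 held without the 320 min library (edgeR adjusted p up to 0.016), and TXNIP lost its call without any 1 of 8 libraries (up to 0.0303), the 300 min one included.

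Among 22 G1 regulators CDKN2B, the CDK4 and CDK6 inhibitor p15, had 1569, 1681 and 2269 at 290-340 min, against 3229.7, 3249, 2806, 2497 and 2387 at 240-280 min (log2 change -0.67, SE 0.11, edgeR adjusted p 0.0035), and its windows did not overlap. Cyclin D1, encoded by CCND1, had 13486, 14624 and 15009 at 290-340 min, against 12287, 12578, 12149, 13018 and 13525 at 240-280 min (log2 change 0.19, SE 0.042, edgeR adjusted p 0.00858), with overlap, and the pocket protein partners E2F5 and E2F4 were higher by 0.43 ± 0.10 and 0.26 ± 0.059 (log2, SE). All 3 higher genes lost their call without the 310 min library and without several others (edgeR adjusted p up to 0.0404), and CDKN2B without any 1 of 4 (up to 0.0127). TMM normalization and spike-in size factors each left 0 of the 22 higher and 1 lower. Without both the 240 and the 300 min library edgeR called none of the 22. Of 37 DNA replication genes edgeR called none, with 6 higher and 2 lower at an unadjusted p under 0.05, near the 23% of all genes, and 1 by DESeq2. Their log2 changes ran from -0.19 to 0.26. PCNA, the sliding clamp and the most abundant of them, had 1629, 1684 and 1771 at 290-340 min, against 1635, 1644, 1612, 1692 and 1680.4 at 240-280 min (log2 change 0.029, SE 0.043, edgeR adjusted p 0.75), with overlapping windows. Between 350-400 and 190-230 min 20 of these 37 genes were higher and 1 was lower, where 15.6% of all genes were higher and 14.8% lower. Replication-dependent histone genes gave 0 calls of 19 (2 at an unadjusted p under 0.05, against 23% of all genes, DESeq2 0), and of 28 genes of G2 and mitosis KIF23 alone was lower, at -0.31, a call lost without any 1 of 5 libraries (edgeR adjusted p up to 0.0213). As 2.02% of all genes tested were lower, this single call is not a result about the list.

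Of 20 p53 targets TP53INP1, ZMAT3 at -0.31 and PHLDA3 at -0.28 were lower, and without the 320 min library none of the 3 kept its call (edgeR adjusted p up to 0.0208). Of 19 clock genes the REV-ERB gene NR1D2 had 523, 578 and 751 at 290-340 min, against 954, 1117, 960.5, 823 and 788 at 240-280 min (log2 change -0.65, SE 0.10, edgeR adjusted p 0.00152) and NFIL3, a repressor of clock output, changed by -0.44 ± 0.076 (log2, SE). Both kept their call in each fit that left out 1 library. Among 28 genes of the primary cilium and the Hedgehog pathway the receptor gene PTCH1 was lower, with 19.6, 21.4 and 26.3 at 290-340 min, against 50.0, 39.9, 34, 28.4 and 33.9 at 240-280 min (log2 change -0.80, SE 0.16, edgeR adjusted p 0.00444), a call lost without the 240, 250, 310 or 320 min library (up to 0.0199). Of 23 interferon-stimulated genes STAT2 was lower at -0.24, lost without any 1 of 5 libraries (edgeR adjusted p up to 0.013), and of 23 Wnt, Notch and mesenchymal regulators the Frizzled receptor gene FZD7 at -0.28 fell, lost without any 1 of 9 libraries (up to 0.0289), while HES1 rose. With 1.63% of all genes tested higher and 2.02% lower, a single call such as that of PTCH1 or STAT2 is not a result about its list.

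Genes that act on the matrix and the cell surface were mixed. Of 18 matrix proteases and plasminogen genes 4 were higher and 1 lower, with a median of 0.14 that turned to -0.012 with spike-in size factors. PLAUR, the urokinase receptor, had 1199, 1412 and 1455 at 290-340 min, against 931, 939, 1042, 1044 and 1095 at 240-280 min. PLAUR had a log2 change of 0.45, SE 0.06, edgeR adjusted p 0.000356. ADAM19, a membrane metalloprotease, had 3971, 4711 and 5069 at 290-340 min, against 2995, 2962, 3437, 3465 and 3795 at 240-280 min. ADAM19 had a log2 change of 0.48, SE 0.068, edgeR adjusted p 0.000549. ADAMTS5, an aggrecanase, had 14.5, 23.7 and 40.1 at 290-340 min, against 69.3, 69.4, 70.3, 47.7 and 36.5 at 240-280 min (log2 change -1.27, SE 0.23, edgeR adjusted p 0.00301), and its highest later value, at 340 min, overlapped the earlier window. ADAMTS6 was higher by 0.46 ± 0.10 (log2, SE). The call of ADAMTS5 was lost without the 250 or the 330 min library and that of ADAMTS6 without any 1 of 9 libraries (edgeR adjusted p up to 0.0414).

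Of 20 integrin and adhesion genes ITGB3 had 1604, 1749 and 1809 at 290-340 min, against 1224, 1108, 1319.9, 1451 and 1461 at 240-280 min (log2 change 0.40, SE 0.066, edgeR adjusted p 0.00115), its reads shared in part with an overlapping gene model on the same strand, and ITGA3 was higher at 0.25. Of 32 actin filament genes 3 were higher, ACTB at 0.24, TPM3 at 0.19 and TPM1 at 0.19, with a list median of 0.14 that turned to -0.018 with spike-in size factors. Without the 310 min library none of the 3 was called (edgeR adjusted p up to 0.0272), and ITGA3 lost its call without any 1 of 8 libraries (up to 0.0292). Of 25 matrix genes edgeR called none (3 higher and 3 lower at an unadjusted p under 0.05, near the 23% of all genes, 2 by DESeq2). The abundant THBS1, thrombospondin, had 173890, 181070 and 188260 at 290-340 min, against 188600, 182810, 191180, 190080 and 189620 at 240-280 min. THBS1 had a log2 change of -0.057, SE 0.04, edgeR adjusted p 0.438. Lysosome and autophagy genes gave 0 calls of 27 (3 at an unadjusted p under 0.05, DESeq2 0), and mitochondrially encoded mRNAs 0 of 13 (1 and 0), against the same 23%.

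Long noncoding RNAs made up 15 of the higher and 24 of the lower genes, or 0.428% and 0.684% of the 3508 tested, against 1.63% and 2.02% over all genes and 2.28% and 2.81% over protein-coding genes. Called genes had median mean counts of 1130 (higher) and 600 (lower), and the shares of the classes were not compared at equal counts. NEAT1, the RNA scaffold of paraspeckles (chr11:65422774-65445540, plus strand), had 11928, 12290 and 14377 at 290-340 min, against 19855, 19799, 18675, 17710 and 16301 at 240-280 min, without overlap (log2 change -0.55, SE 0.057, edgeR adjusted p 0.000166), the smallest adjusted p among the named genes. Small gene models lie over NEAT1, one of which, ENSG00000277599, takes part of the same reads. CARMN had 241, 271 and 294 at 290-340 min, against 459, 388, 416, 343 and 325 at 240-280 min. CARMN had a log2 change of -0.52, SE 0.086, edgeR adjusted p 0.00111. SNHG16, which hosts snoRNAs, was higher by 0.22 ± 0.042 (log2, SE), a call lost without the 250 min library (edgeR adjusted p 0.0122). Of 29 named lncRNAs tested these 3 were called. Among called lncRNAs with a mean of at least 20 and no overlap, the largest falls were ENSG00000274565 (chr17:62626437-62627590, minus strand) with 29.1, 31.9 and 36.3 at 290-340 min, against 86.7, 80.4, 65.8, 73.1 and 49.2 at 240-280 min (log2 change -1.14, SE 0.14, edgeR adjusted p 0.000323), ENSG00000261572 at -1.11 ± 0.19 (log2, SE), LINC01915 at -0.98 ± 0.19 and KIF23-AS1, antisense to KIF23, at -0.89 ± 0.17. The counts of KIF23-AS1 and KIF23 were made by strand and both were lower.

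By the same limits the largest lncRNA rises were LINC01411 with 26.3, 36.9 and 39.2 at 290-340 min, against 23.4, 11.7, 24.9, 20.3 and 25.4 at 240-280 min (log2 change 0.81, SE 0.18, edgeR adjusted p 0.00881), ENSG00000285906 at 0.58 ± 0.10 (log2, SE), LINC01605 at 0.52 ± 0.081 and ENSG00000284707 at 0.49 ± 0.066. ENSG00000284707 covers ASNS on the same strand, and its median count at 290-340 min was 5276 where that of ASNS was 5324, so its reads cannot be told apart from those of ASNS. LINC01605 names 2 genes of the table, and the value is that of the more abundant one. Of the 8 lncRNAs LINC01915, KIF23-AS1, LINC01411 and ENSG00000285906 lost their call without the 250 min library, and LINC01411 without any 1 of 9 libraries (edgeR adjusted p up to 0.0349).

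The share of counts in lncRNAs was lower at 290-340 min. The lncRNA share was 4.11% ± 0.168 (SD, n = 6) at 290-340 min and 4.46% ± 0.134 (SD, n = 5) at 240-280 min, a difference of -0.348 percentage points (exact two-sided permutation test, p 0.00866, adjusted over 5 measures 0.0433). The highest later library had 4.32% and the lowest earlier one 4.319%, so the windows overlapped in 1 library each, and the adjusted exact p was 0.0794 to 0.0952 in 9 of the 11 comparisons that left out 1 library. For the other 4 measures the exact test gave an adjusted p of 0.314 or more: protein-coding genes took 58.5% ± 2.17 at 290-340 min and 57.3% ± 2.17 at 240-280 min, mitochondrial mRNAs 0.413% ± 0.0257 and 0.423% ± 0.019, spike-ins 1.61% ± 0.182 and 1.45% ± 0.132 and the 10 most abundant genes 28.3% ± 2.02 and 29.1% ± 1.77 (SD, n = 6 and n = 5).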

How the data were processed

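The authors trimmed reads with cutadapt 1.11, aligned read pairs of 125 bases to GRCh38 with spike-in RNAs with STAR 2.5.2a, and deposited raw counts per gene from featureCounts over exons of GENCODE release 29, by strand, with multi-mapping reads and reads over several genes counted for each. They also deposited a normalized signal, the count divided by the DESeq2 1.24.0 size factor of its library, called normalized count here. A read counted for several genes can raise paralogs, pseudogenes and overlapping genes together. Names, classes and positions came from GENCODE release 44 on the same build, for 58207 of 58721 genes.

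Genes with over 10 counts in 1 library and over 2 in 3 consecutive libraries were tested with edgeR 4.0.16 (quasi-likelihood, R 4.3.3) on the raw counts, with size factors over all 41 libraries and Benjamini-Hochberg adjustment over 21629 genes. The fits were run on simulated counts with 1 dispersion for all genes. These held no deviant library and, for the step, no drift inside the windows, so they do not bear on those limits. SE is the log2 change divided by the root of F. Shares of counts were compared by exact permutation (scipy 1.17.1). DESeq2 1.42.0, TMM, spike-in size factors, other filters, thresholds and sets of libraries were tried as alternatives. The comparison of 350-400 with 190-230 min, the separate fit of the slope inside the windows (used for the counts of slopes of the same sign), the fit without 240 and 300 min and the motif TGATGCAA were chosen after seeing the data.

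The windows, gene lists and tests were chosen with earlier results of these data known. Named were the 10 protein-coding genes (mean of at least 100 normalized counts) and the 4 lncRNAs (at least 20) with the largest change in each direction among called genes without overlap, and in each list up to 4 called members with a mean of at least 20 or, with none, the most abundant member. IARS1, MARS1, SLC38A2, TXNIP and MYC fall outside this rule. As the dishes differ in time, p-values weigh the difference between windows against the spread among neighbouring time points, which holds the change inside a window. Some members of the lists are counted but not reported here.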

Additional observations from a re-analysis of the deposited data

Results flagged for a closer look

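Of the 258 sets of 5 or 6 values examined, 9 had a library far from the others of its window, measured as its gap to the next value over the whole range, where chance gives about 1 in 20. At 290 min, the first library after the boundary, HMGCS1 had 4402 normalized counts (next 3488), IDI1 1657 (next 1303), KLHL24 357 (next 299) and NR1D2 751 (next 598), each the highest of the 6 libraries at 290-340 min, and WARS1 had 2706 (next 3109), the lowest. At 340 min LINC01411 had 26.3 (next 34.4) and EGR3 8.3 (next 22.8), both the lowest of that window, and PTCH1 had 26.3 (next 22.0), the highest. At 240-280 min the 280 min library had the highest TPM1, 86590 (next 79380).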

How the results depend on the processing

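The 123 changes of single genes were set against 21 alternatives in 2576 comparisons. In 2020 of these the direction and the side of the threshold were kept, 554 kept the direction without passing the threshold, and 2 reversed, both under spike-in size factors and both of uncalled genes, RPL4 at -0.032 and PCNA at -0.13. All 789 called genes kept their direction under each alternative that tested them.

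The number of higher genes, 353, became 11 with spike-in size factors, 590 with all 41 libraries in 10 windows and 200 without the libraries at 240 and 300 min. DESeq2 gave 686 higher and 710 lower, and an adjusted p under 0.05 gave 982 higher and 1000 lower. Leaving out 1 library gave 105 to 463 higher and 167 to 499 lower genes. The number higher moved by over 1.5 times without the library at 240 (154), 250 (105), 260 (158), 270 (205), 310 (159), 320 (136), 330 (223) or 340 min (178), and the number lower without 240 (256), 250 (167), 260 (264), 310 (264), 320 (212), 330 (284) or 340 min (262). The change beyond drift and the change of pace gave 0 genes in each direction under each alternative run. The difference in the lncRNA share ran from -0.392 to -0.296 percentage points when 1 library was left out. Spike-in scaling rests on 66 spike-ins seen in all libraries, whose share of counts varied between 1.29% and 1.79%. No paired analysis was possible because each time point has 1 library and the windows share no culture.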
